A study of Mus musculus with 18 samples.

Results

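Nonsense-mediated decay degrades mRNAs whose stop codon is read as premature. In mammals a stop codon is recognised in this way when an exon junction complex stays bound downstream of it, and long 3′ untranslated regions can also bring the pathway in. The pathway depends on translation, since the ribosome that terminates is what recruits its first factors, and it is known for a role in male germ cells, where loss of several of its genes blocks sperm formation. The 9 genes described here were taken by name as genes of this pathway and not by a rule on their values, though earlier results of these data were known. They were Upf1, Upf2, Upf3a and Upf3b of the UPF core, Smg1, Smg5 and Smg6 of the phosphorylation and cleavage step, and Rbm8a and Magoh of the exon junction complex. They are 9 of the 16306 genes that had a value in at least 1 library, and all 9 were among the 14664 that were tested because 3 or more libraries gave them an FPKM of 1 or higher. FPKM is the number of fragments divided by transcript length and by the library's mapped fragments.

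The series measured RNA of the polysome fraction, where mRNAs are bound by several ribosomes, and of the RNP fraction, the light part of the sucrose gradient that holds mRNAs free of ribosomes. Both fractions came from pachytene spermatocytes (meiotic cells), round spermatids (early haploid cells) and elongating spermatids (late haploid cells) of adult wild-type C57BL/6 mice, with 3 libraries for each of the 6 combinations, 18 in all. Cells were separated by sedimentation in buffer with cycloheximide, which holds ribosomes on mRNAs, and the study judged purity by morphology and put it lowest for elongating spermatids. Nothing in the labels says which libraries came from the same cells, so p-values measure the spread between libraries, which may be technical. These are bulk libraries, in which fewer cells of a type and less RNA per cell cannot be told apart.

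The lists of assembled transcripts held 26773 to 109864 transcripts per library and gave no counts. The paper refers to its supplement for sequencing depth, which was not used here. Markers of elongating spermatids summed to 7975 to 33338 FPKM in the 6 elongating libraries and to 160 to 5506 FPKM in the other 12, so they followed the labels. Markers of pachytene cells followed them in polysomes (2101 to 3357 FPKM in pachytene, 1249 to 1536 in round and 1112 to 1120 in elongating libraries), while in RNPs the ranges overlapped. Pachytene RNP 3 was the library with the fewest transcripts, 26773, and its pachytene markers summed to 261 FPKM, against 826 and 929 FPKM in pachytene RNP 1 and 2. Of these libraries it held the lowest value of Upf1, Upf3b, Smg1, Smg6, Rbm8a and Magoh and the highest of Upf2 and Upf3a. Round polysome 2 and round RNP 2 stood apart from the other round libraries. Markers of round spermatids summed to 101.1 and 62.6 FPKM in these 2, against 1308, 1032, 835 and 506 FPKM in the other 4, and markers of elongating spermatids to 213 and 244 FPKM, against 1606 to 5506 FPKM. Markers of spermatogonia were at 547 and 317 FPKM in them, against 41.2 to 198 FPKM in the other 4. Markers of round spermatids were highest in elongating polysomes, at 1541 to 2070 FPKM. In 5 libraries, pachytene polysome 2 and 3, pachytene RNP 2, round polysome 2 and round RNP 2, the 10 markers of Sertoli cells (the somatic nurse cells of the tubule) summed to 961 to 2418 FPKM, against 22.4 to 318 FPKM in the other 13. In those 5 libraries 9 of the 10 had a value (all but Rhox5, which had none in any library), among them Wt1, Sox9 and Gata4, and in the other 13 libraries 5 to 8 had one. Some of the results that include these 5 are also given without them.

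Upf1 is the RNA helicase at the centre of the pathway, on chromosome 8 (mm9, 72855421 to 72877172, minus strand), with 24 exons and, in its annotated mRNA, 1 intron downstream of its own stop codon. In pachytene spermatocytes it had 19.7, 60.1 and 37.7 FPKM in polysomes, against 21.2, 87.6 and 5.99 FPKM in RNPs. Round spermatids had 9.68, 41.5 and 13.5 FPKM in polysomes, against 5.68, 44.9 and 6.17 FPKM in RNPs. Elongating spermatids had 7.33, 8.21 and 6.74 FPKM in polysomes, against 5.05, 8.36 and 5.46 FPKM in RNPs. The fractions overlapped in every cell type, and the spread within pachytene RNPs was wider than any difference between the fractions' means. The 5 libraries with high Sertoli cell markers were also the 5 with the highest Upf1, at 37.7 to 87.6 FPKM against 5.05 to 21.2 FPKM in the other 13. The next in order on both measures were pachytene polysome 1 and pachytene RNP 1, so Upf1 and the Sertoli markers moved together across the series. Markers of spermatogonia were also high in the 5 libraries, at 149 to 547 FPKM, against 25.9 to 198 FPKM in the other 13. The part of either set of markers in the Upf1 level was not tested.

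**Figure D1:**
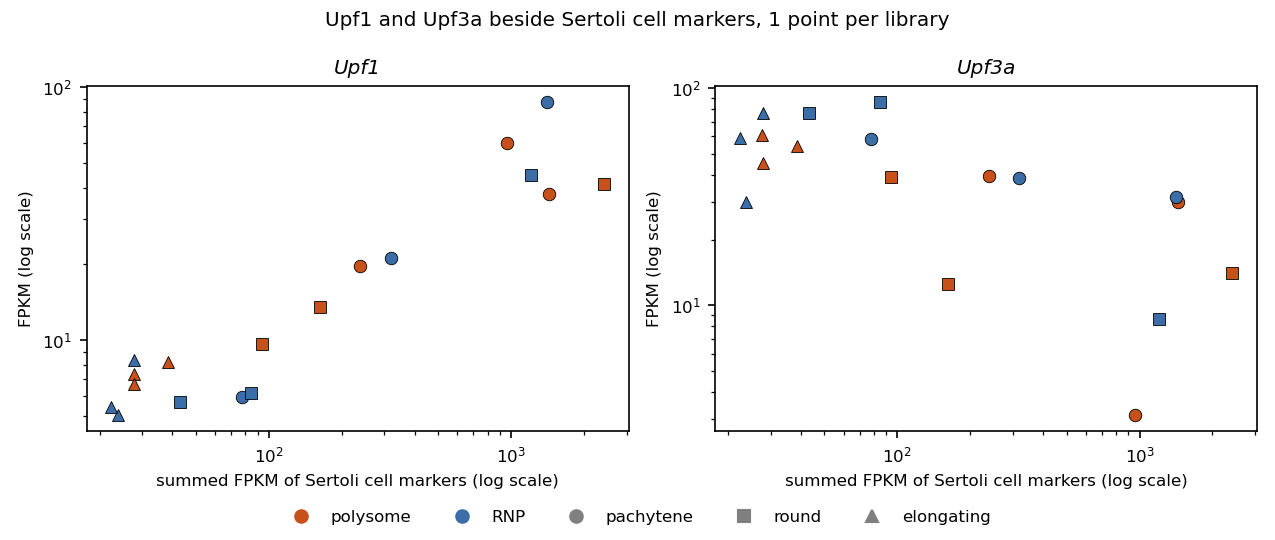
FPKM of Upf1 (left) and Upf3a (right) against the summed FPKM of 10 Sertoli cell markers, both axes on a log scale, 1 point per library, colour for the fraction and shape for the cell type. The 5 libraries at the right of each panel, at 961 FPKM of the markers or more, hold the 5 highest values of Upf1 and, for Upf3a, values of 3.12 to 31.4 FPKM.

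By cell type, Upf1 in polysomes lay lower in elongating spermatids (6.74 to 8.21 FPKM) than in pachytene spermatocytes (19.7 to 60.1 FPKM) with no overlap, and the same held for elongating against round spermatids (9.68 to 41.5 FPKM). The difference between elongating and pachytene polysomes was -2.12 on the log2(FPKM + 1) scale and was not called (limma, standard error 0.85, adjusted p = 0.138), where called means an adjusted p under 0.05. Without the 5 libraries with high Sertoli markers it was -1.30 (standard error 0.64, adjusted p = 0.396), with a single pachytene polysome library left, which is then taken to vary like the other groups.

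The assembled Upf1 transcripts used a pair of 5′ splice sites at the end of exon 7, between coding exons. The annotated one (intron 72863741 to 72863880) was found in 8 of 18 libraries, and one that lies 33 nucleotides, or 11 codons, upstream (intron 72863741 to 72863913), which the annotation lacks, was found in all 18. Upf1 is known to be made with a shorter and a longer regulatory loop from such a choice in this part of the gene. The junction sequences of both forms are shown because the 15 bases in capitals, those before the junction, tell the forms apart, while the 15 bases of exon 8 that follow are shared. They were read from mm9 on the minus strand, chr8:72863726-72863895 for the longer form and chr8:72863726-72863928 for the shorter.
Upf1 longer form: TAATTTGGTTAAGAGacatgcggctcatgc
Upf1 shorter form: CCAAGACTGACTCTGacatgcggctcatgc
The shorter form held 59.6% to 100% of the FPKM of transcripts that cross this junction, and all of it in 10 libraries. In polysomes its share was 84.5%, 84.5% and 100% in pachytene, 79.3%, 76.9% and 59.6% in round and 100%, 82.3% and 100% in elongating cells. In RNPs it was 88.1%, 67.2% and 100% in pachytene and 100% in all 3 round and all 3 elongating libraries. In round spermatids the 3 polysome libraries therefore lay below the 3 RNP libraries without overlap. This comparison was chosen after the values were seen and was not tested, and a form that was not assembled in a library counts as 0 there.

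**Figure D2:**
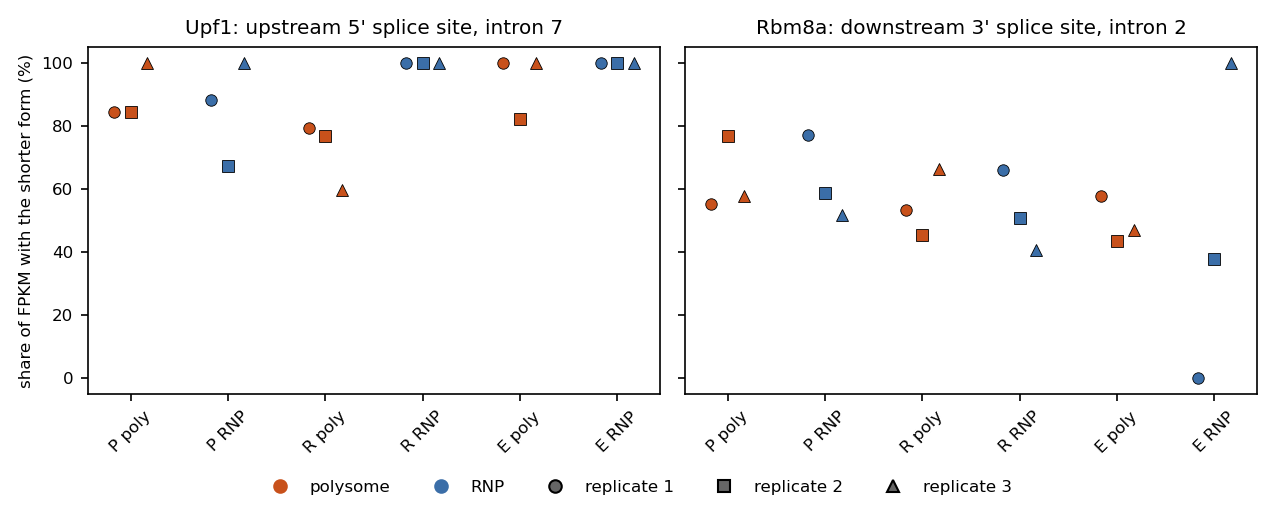
Share of FPKM, in percent, held by the shorter form of Upf1 (left, upstream 5′ splice site of intron 7) and of Rbm8a (right, downstream 3′ splice site of intron 2), for the 6 groups with polysome left of RNP, 1 point per library. For Upf1 all 18 points lie at 59.6% or above, and for Rbm8a most lie around the median of 54.2%, with elongating RNP libraries at 0%, 37.9% and 100%.

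Upf2, the adaptor that joins Upf1 to a UPF3 protein, lies on chromosome 2 (5872515 to 5977749, plus strand). Its values stayed between 6.76 and 20.9 FPKM over all 18 libraries. In pachytene spermatocytes it had 20.9, 13.4 and 15.03 FPKM in polysomes, against 6.76, 13.6 and 14.4 FPKM in RNPs. Values in round spermatids were 16.5, 14.1 and 14.9 FPKM in polysomes, against 10.4, 9.34 and 9.78 FPKM in RNPs, without overlap. Values in elongating spermatids were 10.96, 15.7 and 10.6 FPKM in polysomes, against 10.9, 8.87 and 10.1 FPKM in RNPs. None of the 3 differences was called (log2 0.28 to 0.57, adjusted p = 0.384 to 0.743 from limma). In 10 libraries an unannotated intron (5873668 to 5878516) shared 1 of its splice sites with an annotated one.

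Upf3a and Upf3b encode the 2 UPF3 proteins that link the core to the exon junction complex. Upf3b is the stronger activator of decay, and Upf3a has been described both as a weak activator and as an antagonist. Upf3a lies on chromosome 8 (13785615 to 13798538, plus strand) and Upf3b on the X chromosome (34631673 to 34650335, minus strand), which is silenced in pachytene spermatocytes. Upf3a had 39.6, 3.12 and 29.98 FPKM in pachytene polysomes, against 38.6, 31.4 and 58.5 FPKM in pachytene RNPs. In round cells it measured 39.1, 14.0 and 12.5 FPKM in polysomes, against 77.1, 8.62 and 86.8 FPKM in RNPs. In elongating cells it measured 61.2, 54.4 and 45.3 FPKM in polysomes, against 29.9, 76.7 and 59.0 FPKM in RNPs. It was the only one of the 9 with a negative difference between polysomes and RNPs, -1.29 in pachytene and -1.005 in round cells on the log2 scale (standard error 0.86 each, adjusted p = 0.324 and 0.594 from limma), and neither was called. Upf3a was lower in the 5 libraries with high Sertoli markers, at 3.12 to 31.4 FPKM (median 14.0), against 12.5 to 86.8 FPKM (median 54.4) in the other 13, and the part of the markers in its level was not tested. Without these 5 the differences were -0.26 in pachytene and -1.83 in round cells (adjusted p = 0.866 and 0.151 from limma).

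The 9 polysome libraries carried longer Upf3a transcripts than the 9 RNP libraries without exception. The longest one assembled had 3582 to 8824 nucleotides in polysomes, against 998 to 3192 nucleotides in RNPs, beside 1402 nucleotides in the annotated mRNA. In 7 of the polysome libraries it began 1920 to 2715 bases before the annotated start without joining another gene. In pachytene polysome 2 and round polysome 3 it also carried introns of Cdc16, the neighbour upstream on the same strand, and these 2 had low values (3.12 and 12.5 FPKM). Round polysome 2 and round RNP 2, without such introns, were low too, at 14.0 and 8.62 FPKM. FPKM divides by transcript length, and the part of model length in these values was not tested. Length-weighted values sum FPKM times length over the transcripts of a gene and divide by the length of its exons. They also count unspliced transcripts with at least 50% of their length on those exons, on the same strand or without a strand. The summed FPKM leaves these out for genes with introns, so the 2 measures differ in the transcripts counted too. With length-weighted values the Upf3a difference between polysomes and RNPs was 0.43 in pachytene, 0.62 in round and 1.004 in elongating cells. Its sign in pachytene and round cells thus depended on which transcripts were counted and how they were summed. Length-weighted values of Upf3a also count bases upstream of the gene and, in pachytene polysome 2 and round polysome 3, exons of Cdc16, while the divisor is the gene's own exons. This length comparison was chosen after the values were seen and was not tested.

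Upf3b ranked eighth or ninth of the 9 by mean FPKM in every group but round RNPs. It had 4.88, 8.63 and 6.04 FPKM in pachytene polysomes, against 2.81 and 4.60 FPKM in pachytene RNP 1 and 2, while in RNP 3 no spliced transcript of it was assembled, so it is listed at 0. In round spermatids it had 17.8, 10.1 and 12.9 FPKM in polysomes, against 5.44, 62.7 and 4.54 FPKM in RNPs. In elongating spermatids it had 11.01, 14.5 and 6.82 FPKM in polysomes, against 9.12, 7.39 and 4.43 FPKM in RNPs. The 62.7 FPKM of round RNP 2 rested on a fragment of 135 nucleotides that held 56.8 FPKM, and its length-weighted value was 2.99. Without that library the difference in round cells was 1.26, against 0.12 with it. All 3 round polysome libraries lay above all 3 pachytene polysome libraries, a difference of 0.96 (standard error 0.80, adjusted p = 0.910 from limma).

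The balance of the pair was followed as the log2(FPKM + 1) of Upf3a minus that of Upf3b within a library, which depends little on scaling. In polysomes it was 2.37, 1.83 and 2.57 in elongating spermatids, against 1.09, 0.44 and -0.04 in round spermatids, without overlap. The difference of the means was 1.76 (exact permutation test, 3 against 3, two-sided p = 0.1, the smallest this design allows, and 0.6 after Benjamini-Hochberg adjustment over 6 comparisons). It was 1.22 with length-weighted values, also at p = 0.1 in the exact test. In pachytene polysomes the balance was 2.79, -1.23 and 2.14, so elongating and pachytene overlapped. The other 5 comparisons had exact p-values of 0.5 to 1.

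Smg1 encodes the kinase that phosphorylates Upf1. It lies on chromosome 7 (125274832 to 125387151, minus strand), has 63 exons and the longest mRNA of the 9, 15547 nucleotides. It had 117, 149 and 154 FPKM in pachytene polysomes, against 31.5, 76.4 and 7.58 FPKM in pachytene RNPs. Round spermatids had 195, 172 and 165 FPKM in polysomes, against 25.9, 43.6 and 19.9 FPKM in RNPs. Elongating spermatids had 58.4, 76.3 and 129 FPKM in polysomes, against 22.4, 8.44 and 53.0 FPKM in RNPs. Polysome and RNP values did not overlap in any of the 3 cell types. The differences were 2.33 (standard error 0.70, adjusted p = 0.0549 from limma) in pachytene, 2.60 (0.139) in round and 1.88 (0.152) in elongating cells, so none was called, although all 3 had an unadjusted p under 0.05. The pachytene one was called without pachytene RNP 2, round polysome 2, round RNP 2 or elongating RNP 2 (lowest adjusted p = 0.0397). Smg1 was cut into 1 to 6 transcripts per library, and its length-weighted values were 42.8 to 51.4 in pachytene polysomes and 3.33 to 21.5 in pachytene RNPs, still without overlap.

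An exon of 58 nucleotides that the annotation lacks (125361234 to 125361291) was found in the first intron of Smg1. Both of its junctions were present in 16 libraries, and the annotated junction that skips it was present in all 18. Transcripts with the exon held up to 40.7% of the FPKM that crosses this intron, with a median of 26.7%. Its length is not a multiple of 3, and it lies between exons that are coding in the annotated mRNA.

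Smg5 and Smg6 bind phosphorylated Upf1. Smg6 is the endonuclease that cuts the target near the stop codon, and Smg5 helps to bring in dephosphorylation and decay from the ends. Smg6 (chromosome 11, 74739325 to 74977950, plus strand) had 65.9, 41.3 and 74.2 FPKM in pachytene polysomes, against 15.02, 38.7 and 3.98 FPKM in pachytene RNPs. Values in round spermatids were 78.9, 85.1 and 96.9 FPKM in polysomes, against 32.1, 22.2 and 13.4 FPKM in RNPs. Values in elongating spermatids were 80.8, 112 and 76.6 FPKM in polysomes, against 28.9, 21.3 and 32.5 FPKM in RNPs. Polysome values again lay above RNP values in all 3 cell types without overlap, by the smallest margin in pachytene cells. The pachytene difference of 2.02 (standard error 0.58, adjusted p = 0.0487 from limma) was called, and those of 1.98 in round cells (adjusted p = 0.166) and 1.67 in elongating cells (adjusted p = 0.130) were not. The pachytene call was lost in 15 of the 18 fits that left out 1 library (adjusted p up to 0.229), and it held only without pachytene RNP 2, round polysome 2 or round RNP 2. It was also lost without the 5 libraries with high Sertoli markers (2.90, adjusted p = 0.0931). The elongating difference was called without pachytene RNP 3 (adjusted p = 0.0450).

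Smg6 was assembled in most libraries in pieces, at its 5′ end and over 12 introns at its 3′ end, and unannotated junctions from upstream into position 74742494 were found in 5 to 8 libraries each. Its longest transcript had 3402 to 3486 nucleotides in polysome libraries. In pachytene RNP 1, pachytene RNP 3 and round RNP 3 it had 5810, 4992 and 5907 nucleotides, and in the other RNP libraries 3293 to 3466. The summed FPKM adds up the pieces of a split gene. With length-weighted values the Smg6 differences were 1.35 in pachytene, 1.08 in round and 1.11 in elongating cells. The part of assembly in them was not tested. Its exons share 126 bases with Srr and 117 with Gm12333 on the opposite strand, and the libraries were stranded. Smg5 (chromosome 3, 88140182 to 88166259, plus strand) had 63.9, 55.3 and 92.5 FPKM in pachytene polysomes, against 95.0, 30.3 and 37.1 FPKM in pachytene RNPs. In round cells it measured 81.2, 59.0 and 52.8 FPKM in polysomes, against 85.5, 28.2 and 49.8 FPKM in RNPs. In elongating cells it measured 117, 98.9 and 58.0 FPKM in polysomes, against 43.0, 16.9 and 64.3 FPKM in RNPs. The fractions of Smg5 overlapped in each cell type, and its differences of 0.53, 0.35 and 1.26 were not called (adjusted p = 0.545, 0.793 and 0.223 from limma).

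Rbm8a (Y14) and Magoh form the heterodimer at the core of the exon junction complex, which marks spliced junctions until a ribosome removes it. Magoh (chromosome 4, 107552360 to 107560029, plus strand) was the most simply assembled gene, with its single annotated intron chain and nothing else in all 18 libraries. It had 50.6, 89.8 and 91.8 FPKM in pachytene polysomes, against 17.2, 19.2 and 5.52 FPKM in pachytene RNPs. In round spermatids it had 53.6, 136 and 66.4 FPKM in polysomes, against 13.4, 51.8 and 18.4 FPKM in RNPs. In elongating spermatids it had 38.6, 47.4 and 46.6 FPKM in polysomes, against 10.9, 8.53 and 13.4 FPKM in RNPs. Polysome libraries lay above RNP libraries in all 3 cell types, in round cells by 53.6 over 51.8 FPKM at the closest. The pachytene difference was 2.50 (standard error 0.55, adjusted p = 0.0261 from limma) and was called. It was lost without any 1 of the 3 pachytene polysome libraries or without pachytene RNP 3 (adjusted p up to 0.138), and without the 5 libraries with high Sertoli markers (2.25, adjusted p = 0.108). The differences of 1.70 in round cells (adjusted p = 0.203) and 1.94 in elongating cells (adjusted p = 0.0789) were not called. In elongating cells it was called without pachytene RNP 3 (adjusted p = 0.0434) and without the 5 libraries (adjusted p = 0.0350).

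Rbm8a lies on chromosome 3 (96433851 to 96437702, plus strand). It had 19.1, 32.6 and 24.1 FPKM in pachytene polysomes, against 21.2, 36.5 and 8.28 FPKM in pachytene RNPs. Round spermatids had 174, 123 and 140 FPKM in polysomes, against 12.1, 59.9 and 17.96 FPKM in RNPs. Elongating spermatids had 132, 82.0 and 104 FPKM in polysomes, against 8.92, 6.70 and 38.6 FPKM in RNPs. The polysome values of round and elongating cells lay above their RNP values and above all pachytene values. Its difference in elongating cells, 2.86 (standard error 0.66, adjusted p = 0.0447 from limma), was called, and that in round cells, 2.55 (adjusted p = 0.126), was not. The elongating call was lost in 11 of the 18 fits without 1 library (adjusted p up to 0.216), all but those without pachytene RNP 1, 2 or 3, round RNP 1 or 2, round polysome 2 or elongating RNP 3, and it held without the 5 libraries with high Sertoli markers (adjusted p = 0.0343). The round difference was called without round RNP 2 (3.20, adjusted p = 0.0412).

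The levels of Rbm8a moved with how the gene was assembled, and the part of assembly in its differences was not tested beyond the values given here. In 9 libraries, all 3 round polysome, all 3 elongating polysome, pachytene RNP 2, round RNP 2 and elongating RNP 3, Cufflinks had split it into a 5′ part of 167 to 292 nucleotides and a 3′ part, and in the other 9 it was 1 set of transcripts over the whole gene. The 5′ part alone held 105.3 to 153 FPKM in round polysomes and 67.9 to 110 FPKM in elongating polysomes. The 3′ part or the whole transcripts held 17.4 to 22.5 FPKM in round polysomes, 14.0 to 23.5 FPKM in elongating polysomes and 19.1 to 32.6 FPKM in pachytene polysomes, which overlap. In RNPs they held 12.1 to 17.96 FPKM in round, 6.70 to 8.92 in elongating and 8.28 to 21.2 in pachytene cells. In elongating cells the polysome libraries therefore lay above the RNP libraries in this measure too. With transcripts of at least 300 nucleotides only, no gene of the 9 was called in elongating cells, and with length-weighted values limma called Rbm8a in pachytene cells (1.85, adjusted p = 0.0273) and not in elongating cells (1.94, adjusted p = 0.0565).

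**Figure D3:**
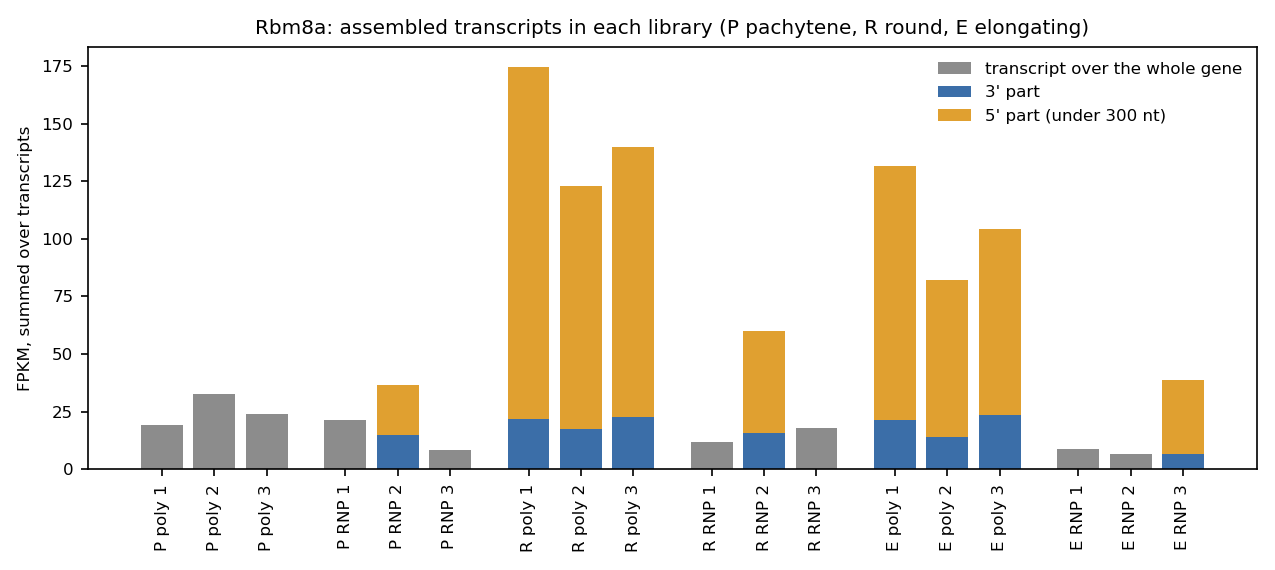
FPKM of Rbm8a in each of the 18 libraries, stacked by kind of assembled transcript, with polysome left of RNP in each cell type. The 5′ part of under 300 nucleotides makes up most of the bars of the 6 round and elongating polysome libraries (67.9 to 153 FPKM), while no pachytene polysome library has one.

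At intron 2 of Rbm8a, between coding exons, the annotated 3′ splice site (intron 96434285 to 96434399) and one lying 3 nucleotides, or 1 codon, downstream (intron 96434285 to 96434402), which the annotation lacks, were each found in 17 of 18 libraries. The window over both sites is shown because a pair of AG dinucleotides, in capitals, stand 3 bases apart in it, followed by the junctions made with each, where the 3 bases kept only in the annotated form are in capitals. They were read from mm9 on the plus strand, chr3:96434383-96434412 for the window.
Rbm8a acceptor window: ggtatgaattcttttAGaAGaggggtcccg
Rbm8a annotated junction: gcggctttggctccgAAGaggggtcccgag
Rbm8a shorter junction: gcggctttggctccgaggggtcccgagcgc
The shorter form held a median of 54.2% of the FPKM that crosses this intron. In polysomes it held 55.2%, 76.9% and 57.8% in pachytene, 53.3%, 45.4% and 66.4% in round and 57.9%, 43.5% and 47.2% in elongating cells. In RNPs it held 77.0%, 58.9% and 51.9% in pachytene, 66.0%, 51.0% and 40.8% in round and 0%, 37.9% and 100% in elongating cells. The shares of the fractions overlapped in each cell type. Both forms were assembled in 16 libraries, while elongating RNP 1 held only the annotated and elongating RNP 3 only the shorter form.

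The log2(FPKM + 1) of Rbm8a minus that of Magoh, partners in 1 complex, was followed within each library. In pachytene cells it was -1.36, -1.43 and -1.89 in polysomes, against 0.29, 0.89 and 0.51 in RNPs, without overlap, a difference of -2.12 (exact permutation test, two-sided p = 0.1, the smallest possible, 0.3 after adjustment over 3 comparisons). In round and elongating cells the differences were 0.85 and 0.92 (exact p = 0.4 and 0.3), and with length-weighted values they were -0.42 and -0.07. The pachytene difference kept its sign there at -0.72.

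The calls were set beside those over all genes tested. In pachytene cells 2 of 9 were called higher in polysomes, against 6.16% of all genes. In round cells 0 of 9 were called, against 0.252% of all genes. Without round polysome 2 and round RNP 2 it was also 0 of 9, against 0.559% of all genes called higher. With all libraries, Smg1, Smg6, Rbm8a and Magoh had an unadjusted p of 0.00137 to 0.00687 from limma in round cells. The share of all genes at such a p is not given here, so this sets the 4 genes apart from no background. In elongating cells 1 of 9 was called higher, against 1.38% of all genes. No member was called lower. The values of 4, 5 and 4 of the 9 lay above the RNP values without overlap in pachytene, round and elongating cells, against 29.5%, 14.4% and 36.9% of all genes.

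Most genes had a higher FPKM in polysomes, with a median log2 difference over all tested genes of 1.01 in pachytene, 0.65 in round and 0.71 in elongating cells. The medians of the 9 members were 0.61, 0.57 and 1.26. Median-ratio scaling, which sets the typical gene equal between libraries, brought the medians of all genes to 0.18, 0.062 and 0.021 and those of the members to -0.50, -0.14 and 0.37. It ended all 3 calls. With length-weighted values, limma called Smg1, Smg6, Rbm8a and Magoh in pachytene cells (4 of 9, against 28.3% of all genes called higher), 0 in round cells (against 0.0710%) and Magoh in elongating cells (1 of 9, against 4.36%). Smg1, Smg6 and Magoh kept positive differences after scaling in all 3 cell types, 1.20, 0.92 and 1.39 in pachytene cells, 1.84, 1.23 and 0.95 in round cells and 1.01, 0.79 and 1.08 in elongating cells, with none called. Upf1, Upf2 and Upf3a had negative differences after scaling in all 3, Smg5 in pachytene and round cells, Upf3b in round and elongating cells, and Rbm8a in pachytene cells. Calls over all genes in pachytene cells were 904 higher and 26 lower as deposited, against 17 higher and 10 lower after scaling.

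**Figure D4:**
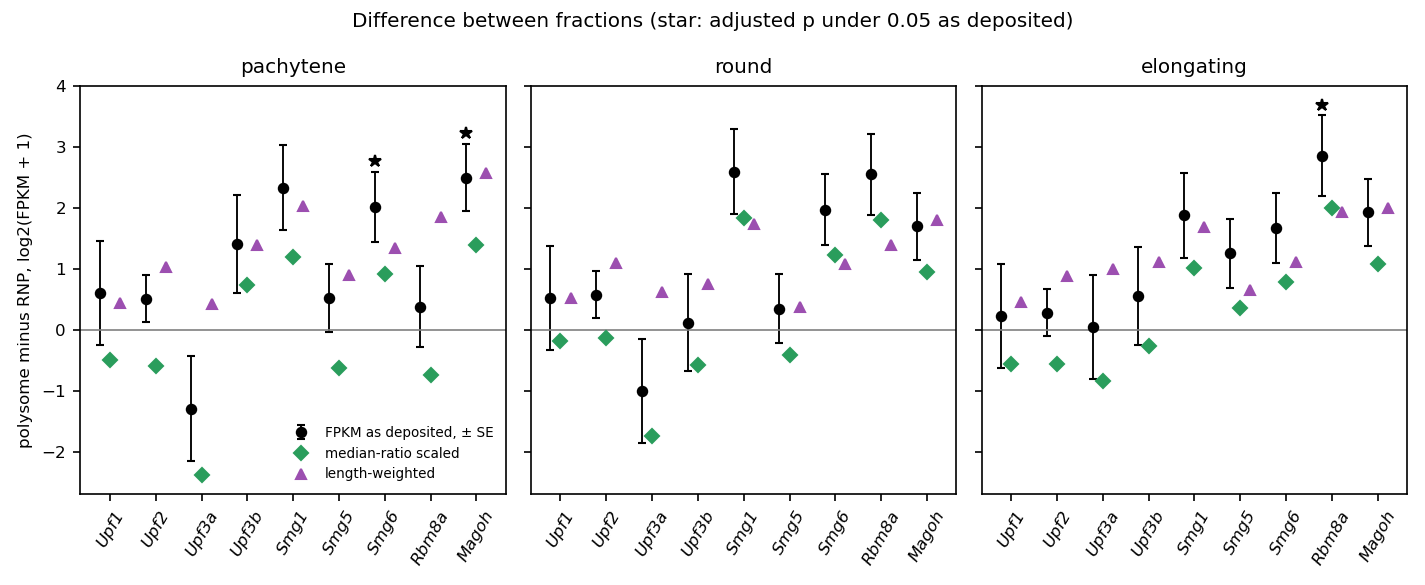
Polysome minus RNP difference on the log2(FPKM + 1) scale for the 9 genes in pachytene, round and elongating cells, as deposited with standard errors (black), after median-ratio scaling (green) and with length-weighted values (purple). Stars mark the 3 calls, Smg6 and Magoh in pachytene and Rbm8a in elongating cells. Smg1, Smg6 and Magoh stay above 0 in all 3 versions, and Upf1 and Upf2 fall below 0 after scaling.

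Between cell types, limma called none of the 9. In RNPs this was against 0% of all genes for round minus pachytene, 0.0818% for elongating minus round and 0.689% for elongating minus pachytene. In polysomes it was against 0.157%, 0.573% and 5.91% in the same order. An unadjusted p under 0.05 was reached by Upf3b in round minus pachytene RNPs and by Rbm8a in round minus pachytene polysomes. Upf1 and Rbm8a reached it in elongating minus pachytene polysomes, and no member did in the other 3. The share of all genes that reached it is not given here. The Upf3b difference of 2.24 stood beside the fragment of 135 nucleotides in round RNP 2 and the 0 of pachytene RNP 3. It was 1.46 with length-weighted values. In polysomes, 4 of 9 lay higher in round than in pachytene cells without overlap (Upf3b, Smg1, Smg6 and Rbm8a), against 3.66% of all genes. With length-weighted values, round and pachytene polysomes overlapped for all 4 of these genes. Smg1 was then at 39.6 to 54.6 against 42.8 to 51.4, and Smg6 at 13.1 to 26.6 against 13.96 to 25.4. In round polysome 2, 48.7 of the 85.1 FPKM of Smg6 lay in transcripts of under 300 nucleotides. In elongating against round polysomes 1 lay higher (Upf3a, 12.1% of all genes) and 3 lower (Upf1, Smg1 and Magoh, 12.9%). In elongating against pachytene polysomes 3 lay higher (Upf3a, Smg6 and Rbm8a, 15.9%) and 2 lower (Upf1 and Magoh, 22.8%). Of these, only Smg6 and Rbm8a, in elongating against pachytene polysomes, overlapped with length-weighted values. In RNPs the cell types overlapped for all 9, where 4.43% of all genes did not overlap, in either direction, for round against pachytene, 15.2% for elongating against round and 19.2% for elongating against pachytene cells. The largest of the polysome differences, 2.50 for Rbm8a in round against pachytene cells (adjusted p = 0.213 from limma), stood beside the change in assembly described above, and it was 0.10 with length-weighted values. In elongating against pachytene polysomes Rbm8a differed by 2.03 (adjusted p = 0.0787), which was called after scaling (2.26, adjusted p = 0.0457) and was -0.60 with length-weighted values.

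The difference between fractions was compared between cell types by an interaction term in limma. No member was called, against 0.0136% of all genes from pachytene to round, 0.00682% from round to elongating and 0.0273% from pachytene to elongating cells. Rbm8a alone had an unadjusted p under 0.05, with a change of 2.18 (standard error 0.94) from pachytene to round and 2.48 (standard error 0.94) from pachytene to elongating cells. With length-weighted values these changes were -0.45 and 0.087.

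**Figure D5:**
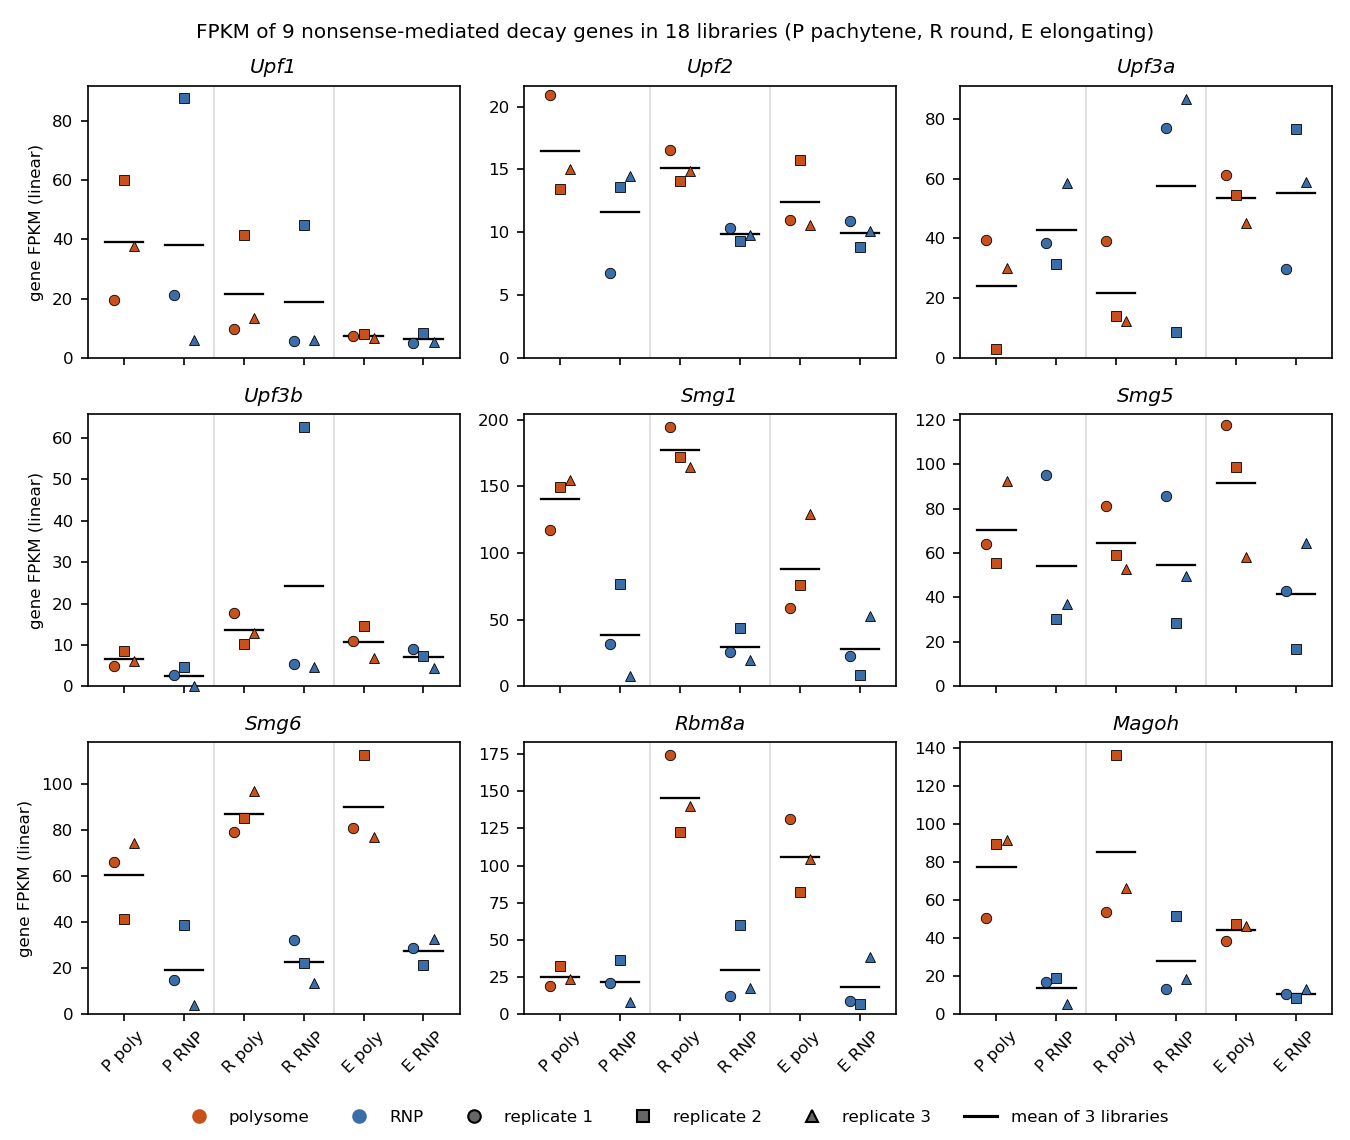
FPKM of each of the 9 genes in the 18 libraries on linear axes starting at 0, with polysome left of RNP in pachytene (P), round (R) and elongating (E) cells, marker shape for the replicate number and a bar for the mean of 3 libraries. Smg1, Smg6 and Magoh show the polysome points above the RNP points in all 3 cell types. Upf1 shows its high values in the pachytene and round replicates numbered 2 and in pachytene polysome 3.

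Ordered by mean FPKM, Smg1 was highest in pachytene polysomes (140 ± 20.2, SD, n = 3), ahead of Magoh (77.4 ± 23.2) and Smg5 (70.6 ± 19.5), which overlapped with each other but not with Smg1. In round polysomes Smg1 (177 ± 15.7) and Rbm8a (146 ± 26.4) led and overlapped, and in elongating polysomes Rbm8a (106 ± 24.8), Smg5 (91.5 ± 30.4), Smg6 (89.98 ± 19.6) and Smg1 (87.9 ± 36.7) all overlapped. Upf3a led in round RNPs (57.5 ± 42.6) and elongating RNPs (55.2 ± 23.6), and Smg5 in pachytene RNPs (54.1 ± 35.6), each overlapping with the next. With length-weighted values Upf3a ranked first and Upf3b last in all 6 groups, from 146 ± 8.84 for Upf3a in elongating polysomes to 0.758 ± 0.690 for Upf3b in pachytene RNPs, with the sequence upstream of Upf3a counted in its value. The order of Smg1 and Rbm8a near the top thus differed between the 2 ways of summing.

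Of 25 other genes of the pathway taken as a list, 24 were tested. In pachytene cells 4 of 24 were called higher in polysomes and none lower, against 6.16% of all genes called higher. The median difference over the 24 was 1.55, against 1.01 over all genes tested. Among those called were Magohb (1.62, adjusted p = 0.0464), the near copy of Magoh, Ncbp2 (1.89, adjusted p = 0.0187), the small subunit of the nuclear cap-binding complex, and Pnrc2 (1.99, adjusted p = 0.0241), an adaptor between Upf1 and decapping, all from limma. In round cells none of the 24 was called, against 0.252% of all genes called higher (median 1.06, against 0.65 over all genes). In elongating cells Ncbp2 alone was called (1.88, adjusted p = 0.0243 from limma), against 1.38% of all genes called higher. The median of the list there was 1.07, against 0.71 over all genes. After median-ratio scaling the medians were 0.48, 0.31 and 0.20, against 0.18, 0.062 and 0.021 over all genes. None of the 24 was then called in these 3 comparisons. Magoh and Magohb encode nearly identical proteins, and how reads common to both were shared out is not known here.

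The genes whose pattern over the 18 libraries was most like the mean of the 9, after median-ratio scaling, were Vps35 (Pearson r = 0.91), Stag2 (0.88), Ppp6r3 (0.87), Cltc (0.86) and Rbm25 (0.85), out of 7119 candidates with a mean FPKM of at least 10. The libraries share cell types and fractions, so these values are a description. Among the members themselves, Smg1 and Magoh varied most alike (r = 0.76), and Upf3a ran opposite to Magoh (-0.83) and Smg1 (-0.70). These are also a description over the same 18 libraries. Upf3a transcripts were assembled longer in polysomes, and FPKM divides by transcript length. With length-weighted values and no scaling, its polysome minus RNP difference was positive in all 3 cell types (0.43, 0.62 and 1.004). The part of transcript length in the 2 negative correlations was not tested.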

How the data were processed

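RNA-seq of polysome and RNP fractions was analysed in 18 libraries. Per the paper's methods the authors removed adaptors and poor reads (FASTX-Toolkit), then mapped to the mm9 genome (TopHat2) and built transcripts with Cufflinks, 1 list per library. Versions are not given in the sources used here. Sequencing was partly single-end and partly paired-end, and the labels do not say which library had which. The deposited values are FPKM, not counts, given per assembled transcript, with no scaling between libraries. Coverage per FPKM, which is 1 constant in each library and rises with depth and read length, ran from 1.20 to 2.26. The scaling to control mRNAs in the study's methods was not applied here.

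Spliced transcripts were assigned to genes of GENCODE vM1 (mm9) by strand and shared splice junction (82.4% to 97.2% of them per library), and their FPKM summed per gene. A transcript that was not assembled counts as 0. Differences were tested with limma 3.58.1 (R 4.3.3, trend) on log2(FPKM + 1) in 1 model of 6 groups, with Benjamini-Hochberg adjustment over 14664 genes, calls at an adjusted p under 0.05 and both tails. Fold changes on this scale understate changes of low genes. Differences between 2 members used exact permutation tests. All 9 members are named, with those of the 25 other pathway genes that were called in a fraction comparison, apart from 1 that is not reported here, and the 5 genes most alike in pattern. Members and lists were chosen with earlier results of these data known. In that list Smg8 and Smg9 were matched to 1200011M11Rik and 1500002O20Rik. Same-numbered libraries deviated together, with every correlation over 0.1, only between the fractions of round cells (0.204 to 0.662) and between round and pachytene RNPs (0.118 to 0.596). The labels do not say what a number marks. The tests reported carry no block, and a fit with the replicate number as a block is given as an alternative, which changed no call in these 2 comparisons. Python 3.11.15, numpy 2.4.6, pandas 2.3.3 and matplotlib 3.10.9 were used, and the fits were tested on simulated data.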

Additional observations from a re-analysis of the deposited data

How the results depend on the processing

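Counts of members called are given with the share of all genes called in brackets. Higher in pachytene polysomes were 2 as deposited (6.16%), 0 after median-ratio scaling (0.117%), after quantile normalization (0.0818%), with only the libraries compared (0.103%), with whole annotated intron chains only (0.644%) and without the 5 libraries high in Sertoli markers (0.606%), 4 with length-weighted values (28.3%), and 0 to 3 without 1 library (0.157% to 10.97%). In elongating cells the count was 1 as deposited (1.38%), 0 after median-ratio scaling (0.234%), quantile normalization (0.109%), with whole chains only (0.211%) and with transcripts of at least 300 nucleotides (1.49%), 3 with only the libraries compared (21.0%), 2 without round libraries numbered 2 (4.83%), 2 without the 5 libraries (5.27%), and 0 to 3 without 1 library (0.137% to 3.42%). In round cells it was 0 as deposited (0.252%) and 0 to 1 without 1 library (0.0615% to 0.547%). In elongating minus pachytene polysomes, in either direction, it was 0 as deposited (5.91%), 1 after median-ratio scaling (3.93%), 2 with only the libraries compared (20.1%), 1 without round libraries numbered 2 (16.1%), and 0 to 1 without 1 library (0.957% to 9.76%). With the replicate number as a block the count was 2 in elongating cells (6.92%) and 1 in elongating minus pachytene polysomes (10.1%), where the libraries share only a number, and the block changed no other count of members.

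Differences between fractions changed sign as follows, each given after median-ratio scaling and then after quantile normalization. In pachytene cells Upf1 was at -0.50 and -0.40, Upf2 at -0.59 and -0.57, Smg5 at -0.63 and -0.68, and Rbm8a at -0.73 and -0.75. In round cells Upf1 was at -0.18 and -0.18, Upf2 at -0.14 and -0.043, Upf3b at -0.58 and -0.64, and Smg5 at -0.41 and -0.41. In elongating cells Upf1 was at -0.57 and -0.35, Upf2 at -0.56 and -0.37, Upf3a at -0.84 and -0.77, and Upf3b at -0.26 and -0.073. With whole chains only, Upf3a was at 1.66 in pachytene and 0.52 in round cells, Upf3b at -0.037 in round cells, and Rbm8a at -1.96 in round and -1.89 in elongating cells. With length-weighted values Upf3a was at 0.43 in pachytene and 0.62 in round cells. Leaving out 1 library also changed a sign. Upf1 ranged from -0.28 (without pachytene RNP 3) to 1.55 in pachytene and from -0.063 (without round polysome 2) to 1.44 in round cells, Rbm8a from -0.17 (without pachytene RNP 3) to 0.84 in pachytene cells, Upf3b from -0.50 (without round RNP 3, and also negative without round RNP 1 or round polysome 1) to 1.26 in round cells, Smg5 from -0.046 (without round RNP 2) to 0.74 in round cells, and Upf3a from -0.33 (without elongating RNP 1, and also negative without elongating polysome 1) to 0.33 in elongating cells.

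Of the differences within a library, Upf3a minus Upf3b in elongating minus round polysomes was 2.55 with whole chains and 1.22 with length-weighted values. In elongating minus pachytene polysomes it was 2.92 with whole chains and -0.53 without the 5 libraries, and in RNPs 1.68 with whole chains. Rbm8a minus Magoh in pachytene cells was -0.72 length-weighted, -1.71 with transcripts of at least 300 nucleotides and -1.76 without the 5 libraries. In round cells it was -3.66 with whole chains, -0.42 length-weighted and -1.28 at 300 nucleotides, and in elongating cells -3.83, -0.070 and -0.67. Read depth was not used here, so no limit from it can be given. The cause of these changes was not tested. The alternatives with 300 nucleotides and without the 5 libraries were chosen after seeing the data.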
